A study of Mus musculus with 8 samples.

Results

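The genes described here encode the nuclear subunits of the oxidative phosphorylation system in mouse liver. They were the genes of the array whose annotation named exactly 1 gene and whose symbol began with Nduf, Sdha to Sdhd, Uqcr, Cox4 to Cox8 or Atp5, and no measured value took part in that choice. This gave 93 of the 22180 genes measured. Of these, 79 were subunits, with 34 in complex I, 4 in complex II, 7 in complex III, 17 in complex IV and 17 in complex V. Another 12 were assembly factors whose names begin with Ndufaf or Sdhaf, and 2 were pseudogenes (Uqcrh-ps1 and Atp5c1-ps). The subunits encoded by mitochondrial DNA were not analysed here.

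The study asked what a high-fat diet eaten by the mother during lactation does to the liver of the grown offspring. HFD PN livers came from adult male offspring nursed by C57BL/6J dams that ate a 60% high-fat diet, and Ctrl PN livers from adult male offspring of dams that ate a standard chow. Livers were taken at 24 weeks of age. The high-fat diet was given to the dams during lactation, and the offspring were weaned onto a normal diet with no later treatment. Each of the 4 HFD PN and 4 Ctrl PN livers was read on 1 Affymetrix array, and all values below are log2 expression values, with differences given as HFD PN minus Ctrl PN.

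Oxidative phosphorylation takes electrons from NADH at complex I and from succinate at complex II, passes them through complex III and cytochrome c to oxygen at complex IV, and uses the proton gradient built on the way to make ATP at complex V. Except for complex II, each complex has a small core that does the chemistry and a shell of accessory subunits, most of them short proteins. The liver depends on this system to burn fatty acids and to power glucose production, and several complex IV subunits exist as a common form and as a form made mainly in muscle or brown fat.

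The tissue label was checked first. The 11 hepatocyte markers measured had a median level of 10.34 to 11.02 in HFD PN livers and of 10.26 to 11.01 in Ctrl PN livers, while that of 12 striated muscle markers was 1.42 to 1.62 in HFD PN livers and 1.57 to 1.66 in Ctrl PN livers, close to the median of all rows of the array (1.55). Of the 93 genes, 87 had a mean above that median. Pearson's r across all genes was 0.986 to 0.991 among 6 of the arrays. HFD PN replicate 1 (0.945 to 0.968 with the others) and Ctrl PN replicate 3 (0.969 to 0.979 with those 6) stood apart, and the values without them are given further on. The sources used here do not say which livers shared a litter, so p-values measure the spread between these livers. Of other cells the liver holds, markers had median differences of -0.23 over 12 macrophage, -0.21 over 12 endothelial, -0.25 over 12 stellate cell, -0.00072 over 5 cholangiocyte and 0.05 over 9 lymphocyte genes. Unadjusted limma p-values under 0.05 with a lower HFD PN mean were found for 0, 1, 3, 0 and 0 of these markers, against 2.36% of all genes, and their part in the results below was not tested. In a piece of whole liver, fewer cells of a type and less RNA per cell cannot be told apart.

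The promoters of these genes were searched for the words bound by factors known to drive mitochondrial genes. RefSeq start sites (build GRCm38.p6) gave a window of 300 bases, 250 before and 50 after the start, for 76 of the 93 genes. These windows were searched on both strands for the ETS word CCGGAAG that GABP binds, the NRF1 word (GCGCA and GCGC with 1 base of any kind between them), the YY1 word AAGATGGC and the estrogen-related receptor word TCAAGGTCA, none of which overlaps another in the windows printed here. The ETS word was in 22 of the 76 genes (28.9%, against 9.93% of all 27025 genes with a window), the NRF1 word in 19 (25.0% against 5.19%), the YY1 word in 10 (13.2% against 3.19%) and the receptor word in 2, Atp5g3 and Sdhd (2.63% against 0.466%). A match is a description of the letters and not of a bound factor. The 4 windows below belong to genes on which later results turn, with matches in capitals on either strand. Cox8b and Cox8a are the brown fat and muscle form and the common form of the same complex IV subunit, and Ndufs4 and Sdha moved to opposite sides on the arrays that stood apart. All 4 genes lie on the minus strand, at chr7:140900397-140900696, chr19:7217567-7217866, chr13:114388045-114388344 and chr13:74350191-74350490 in the order printed.
Cox8b: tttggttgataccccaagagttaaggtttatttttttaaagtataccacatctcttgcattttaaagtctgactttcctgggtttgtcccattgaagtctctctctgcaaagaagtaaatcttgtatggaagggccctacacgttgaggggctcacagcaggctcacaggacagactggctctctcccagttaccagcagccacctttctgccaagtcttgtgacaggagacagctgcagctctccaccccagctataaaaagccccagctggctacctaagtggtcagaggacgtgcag
Cox8a: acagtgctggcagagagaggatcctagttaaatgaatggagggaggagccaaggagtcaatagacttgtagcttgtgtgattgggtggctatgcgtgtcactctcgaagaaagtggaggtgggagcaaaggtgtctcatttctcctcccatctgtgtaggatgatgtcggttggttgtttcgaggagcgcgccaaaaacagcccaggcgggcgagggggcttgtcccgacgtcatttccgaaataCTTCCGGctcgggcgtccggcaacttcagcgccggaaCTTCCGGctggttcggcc
Ndufs4: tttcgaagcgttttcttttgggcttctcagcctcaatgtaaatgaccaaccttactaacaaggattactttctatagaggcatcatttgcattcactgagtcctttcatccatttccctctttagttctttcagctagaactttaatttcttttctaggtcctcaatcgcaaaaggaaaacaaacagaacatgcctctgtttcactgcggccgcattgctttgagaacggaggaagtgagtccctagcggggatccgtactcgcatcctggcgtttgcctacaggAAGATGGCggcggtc
Sdha: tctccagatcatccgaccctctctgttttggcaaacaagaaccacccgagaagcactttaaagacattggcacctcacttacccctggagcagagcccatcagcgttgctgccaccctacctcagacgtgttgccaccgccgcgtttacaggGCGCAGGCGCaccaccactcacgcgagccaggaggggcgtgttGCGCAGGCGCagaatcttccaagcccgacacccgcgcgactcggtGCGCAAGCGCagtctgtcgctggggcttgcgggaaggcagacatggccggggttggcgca
The common form Cox8a had 2 ETS matches and a GC content of 56.0%, whereas Cox8b had no match to any of the 4 words and a GC content of 48.3%. Ndufs4 held 1 YY1 match and Sdha 3 NRF1 matches.

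No oxidative phosphorylation gene differed between HFD PN and Ctrl PN livers beyond the spread between livers once p-values were adjusted over all genes. At the study's exploratory threshold, an unadjusted limma p under 0.01, 0 of the 93 genes passed, against 0.555% of all genes. At a p under 0.05, 1 of the 93 passed, lower in HFD PN, against 3.49% of all genes in either direction (1.13% higher and 2.36% lower in HFD PN). The direction of calls over all genes depended on the livers used, since at a p under 0.01 there were 43 higher and 80 lower genes with all livers, and 393 higher and 99 lower without HFD PN replicate 1. For 0 of the 93 genes were the 2 groups free of overlap, against 2.82% of all genes. No gene of the array passed an adjusted p of 0.05 in limma (774 had an unadjusted p under 0.05), and the adjusted p was 0.99988 for every gene named here. The 93 differences had a median of -0.03, with 36 above and 57 below 0, beside a median of -0.02 over all genes, of which 9791 lay above and 12389 below 0. Of the 93, 84 differed by under 0.25 on the log2 scale, and for 92 the 95% interval lay within -1 to 1. The exception was Cox8b. The medians of the complexes given below lay within 0.08 of 0, and all 5 changed sign without Ctrl PN replicate 3.

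**Figure D1:**
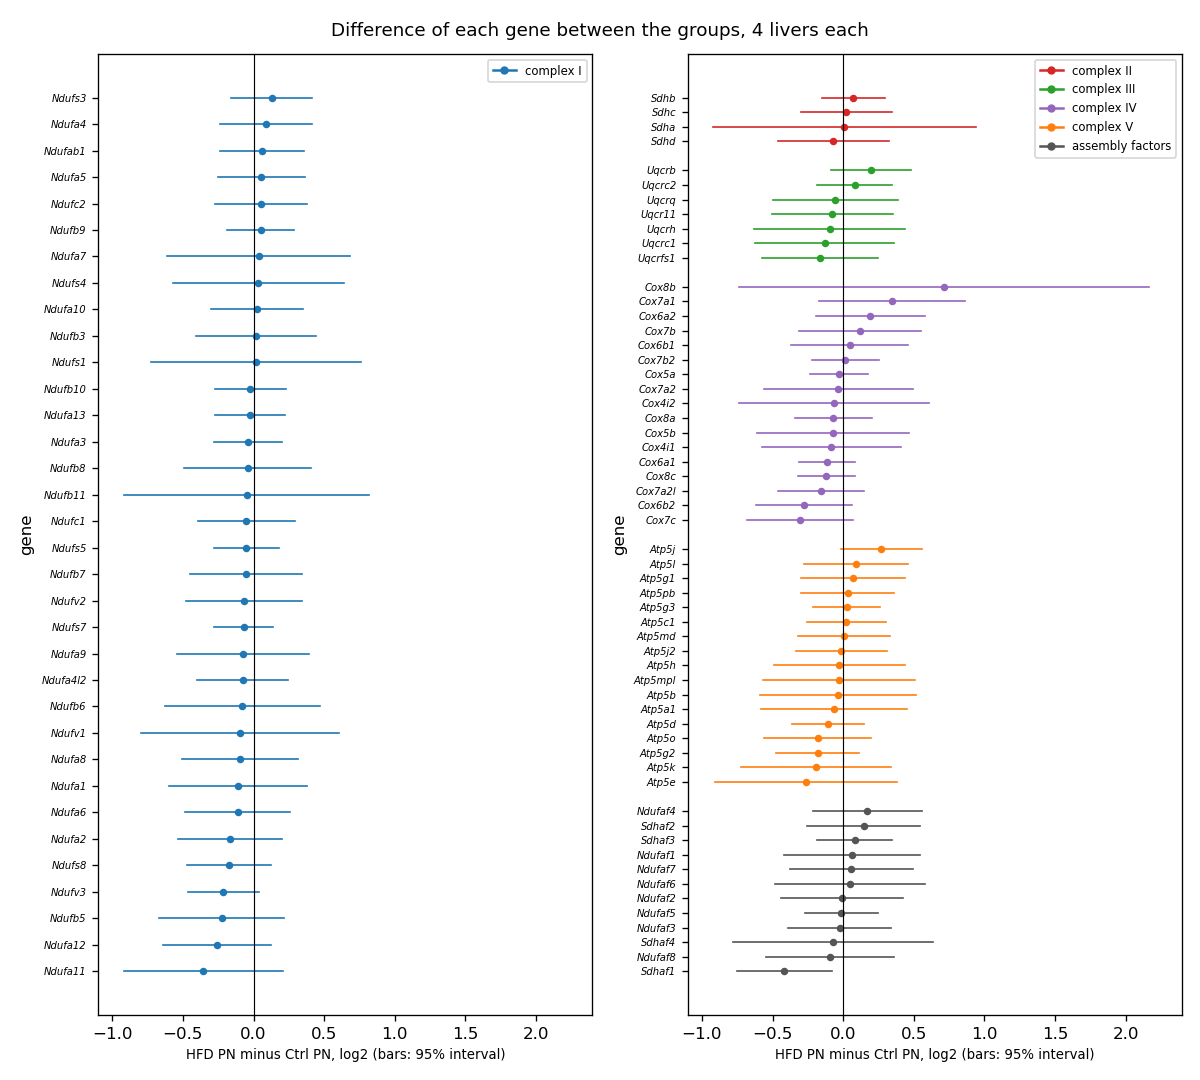
Log2 difference HFD PN minus Ctrl PN (horizontal axis) for each of 79 subunit genes by complex and for 12 assembly factors (vertical axis), with 95% intervals from limma and 4 livers a group. The intervals of all genes plotted reach across 0 except that of Sdhaf1 (-0.75 to -0.08), and the widest is that of Cox8b (-0.74 to 2.16).

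In complex I, the entry point for electrons from NADH, the 34 subunits had a median difference of -0.05, with 11 above and 23 below 0, and 0 passed a p under 0.05. Ndufa11, an accessory subunit of the membrane arm, had the lowest difference. It read 8.0, 7.24, 7.18 and 7.21 in HFD PN livers, against 7.69, 7.32, 8.32 and 7.72 in Ctrl PN livers. The 3 HFD PN livers other than replicate 1 lay below every Ctrl PN liver, and replicate 1 lay above all Ctrl PN livers but replicate 3. Its difference was -0.35 (standard error 0.25, limma p = 0.185, exact two-sided permutation p = 0.286), and its second row on the array gave 0.15. Ndufa12, an accessory subunit of the matrix arm, averaged 6.94 ± 0.10 in HFD PN and 7.19 ± 0.35 in Ctrl PN livers (SD, n = 4 each), a difference of -0.26. Ndufv3, an accessory subunit of the flavoprotein part, had the smallest p of the complex (limma p = 0.0888, exact permutation p = 0.114) with a difference of -0.21. Its HFD PN livers read 4.86, 4.86, 4.58 and 4.82, against 4.96, 4.82, 5.18 and 5.01 in Ctrl PN livers, and Ctrl PN replicate 2 fell among the HFD PN values. At the other end, the core subunit Ndufs3 had the highest difference of the complex, 0.13. Ndufa4, which was first assigned to complex I and is now counted with complex IV, averaged 11.14 ± 0.25 in HFD PN and 11.05 ± 0.16 in Ctrl PN livers (SD, n = 4 each). Its paralogue Ndufa4l2, a hypoxia-induced gene, averaged 1.84 in HFD PN and 1.92 in Ctrl PN livers. Ndufb9, an accessory subunit of the membrane arm, differed by 0.05 (standard error 0.10).

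Complex II, succinate dehydrogenase, is the only one of the 5 that also works in the citric acid cycle, and its 4 subunits are all nuclear. Their differences lay between -0.07 and 0.07, and 0 of 4 passed a p under 0.05. Sdha, the flavoprotein that oxidises succinate, read 6.43, 7.77, 8.27 and 8.09 in HFD PN livers, against 7.90, 8.07, 6.91 and 7.63 in Ctrl PN livers. HFD PN replicate 1 and Ctrl PN replicate 3 were the lowest of the 8 livers, and the groups overlapped over most of their range. Its difference was 0.01 with a standard error of 0.41, so its 95% interval ran from -0.92 to 0.94. The iron-sulfur subunit Sdhb was the steadiest, at 6.73 ± 0.08 in HFD PN and 6.66 ± 0.13 in Ctrl PN livers (SD, n = 4 each), a difference of 0.07 (95% interval -0.15 to 0.29). The membrane anchors Sdhc and Sdhd differed by 0.02 and -0.07.

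In complex III, which hands electrons from ubiquinol to cytochrome c, the 7 subunits had a median difference of -0.08, with 2 above and 5 below 0. Uqcrb, a small subunit near the ubiquinone site, was the highest at 0.20. It read 10.85, 10.81, 10.69 and 10.94 in HFD PN livers, against 10.48, 10.40, 10.80 and 10.82 in Ctrl PN livers, so the groups overlapped through Ctrl PN replicates 3 and 4 (exact permutation p = 0.171). Uqcrfs1, the Rieske iron-sulfur protein, was the lowest at -0.16, and with both arrays that stood apart left out its difference was 0.0088. The core proteins Uqcrc1 and Uqcrc2 differed by -0.13 and 0.08.

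In complex IV, cytochrome c oxidase, the 17 genes had a median difference of -0.07, with 6 above and 11 below 0, and 0 passed a p under 0.05. Among the common forms, Cox7c had the lowest difference. It read 3.02, 3.34, 3.36 and 3.37 in HFD PN livers, against 3.86, 3.77, 3.17 and 3.52 in Ctrl PN livers. Every HFD PN liver lay below every Ctrl PN liver except Ctrl PN replicate 3. Its difference was -0.31 (standard error 0.16, limma p = 0.0976, exact permutation p = 0.20). Cox6a1, at a high level with little spread, averaged 10.88 ± 0.06 in HFD PN and 10.99 ± 0.09 in Ctrl PN livers (SD, n = 4 each), a difference of -0.11 (exact permutation p = 0.0857). Cox4i1, the common form of the largest nuclear subunit, differed by -0.08 and turned to 0.07 without Ctrl PN replicate 3. Cox6b1, Cox7a2, Cox7b and Cox8a differed by between -0.07 and 0.12. Cox7a2l, which joins complexes III and IV into supercomplexes, differed by -0.16 (standard error 0.13).

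The tissue-restricted forms gave the value that stood out most among all 93 genes. Cox8b, the form of subunit 8 known from muscle and brown fat, read 1.16, 4.30, 1.37 and 1.16 in HFD PN livers, against 1.40, 1.31, 1.19 and 1.22 in Ctrl PN livers. It was below the median of all rows (1.55) in 7 livers and above it only in HFD PN replicate 2. The lead of this liver over the highest of the other 7 was 2.89 on the log2 scale, the largest such lead of any of the 22180 genes in that liver. The gene in second place was Ucp1, the proton channel of brown fat, at 1.45, 4.41, 1.17 and 1.40 in HFD PN livers and at 1.5, 1.22, 1.41 and 1.58 in Ctrl PN livers. Serpina4-ps1, a pseudogene, and C4a, a complement gene, which are not on the fat cell list, came next with leads of 2.66 and 2.35, ahead of Retn (1.96) and Fabp4 (1.76). Because 1 liver carried it, the difference of Cox8b, 0.71 (standard error 0.64, exact permutation p = 0.800), did not exceed the spread, and it was -0.05 without HFD PN replicate 2. Cox7a1, the muscle and brown fat form of subunit 7a, was also highest in HFD PN replicate 2, but with a lead of only 0.37. It read 3.23, 3.60, 2.64 and 2.83 in HFD PN livers, against 2.4, 2.67, 2.73 and 3.12 in Ctrl PN livers, and the groups overlapped.

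**Figure D2:**
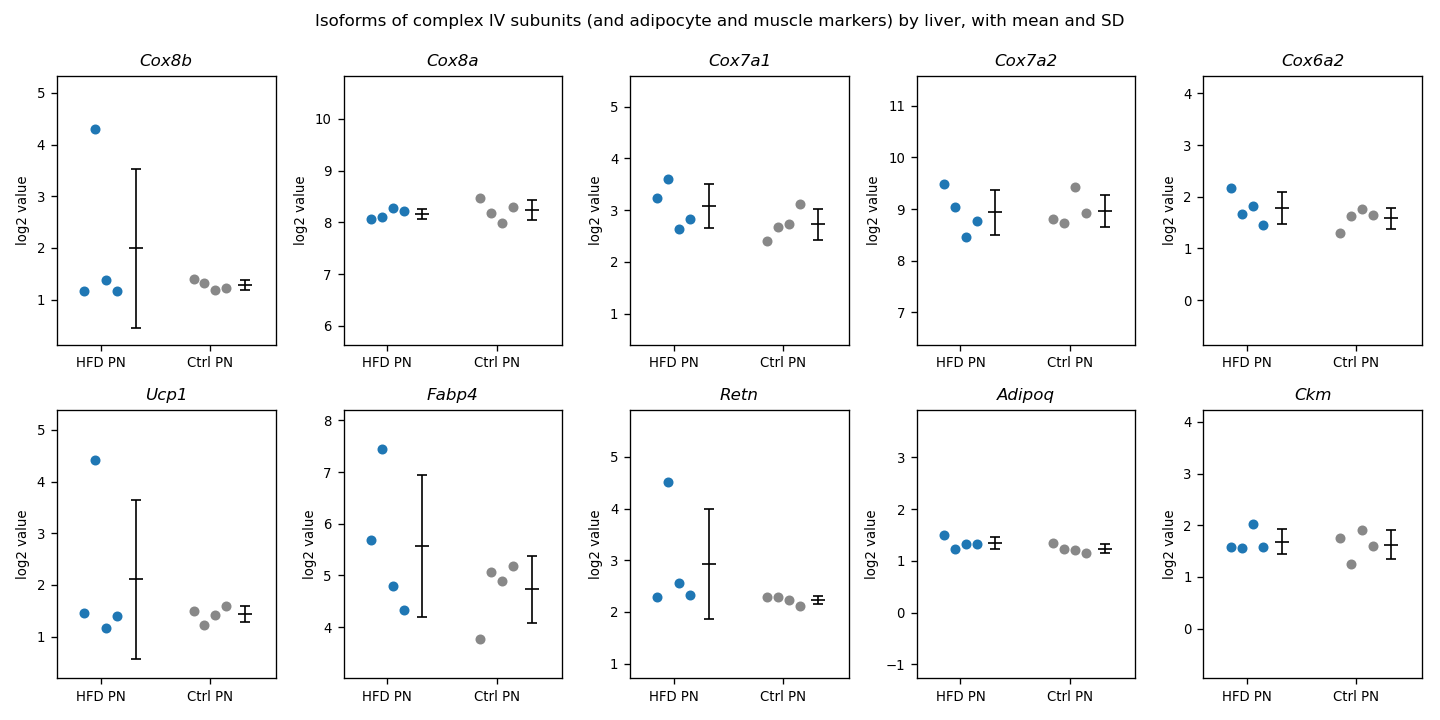
Log2 expression (vertical axes, each spanning the same number of log2 units) of complex IV isoforms and of adipocyte and muscle marker genes, with 1 point per liver in replicate order, HFD PN in blue and Ctrl PN in grey, and the mean with SD beside them (n = 4 each). Cox8b (4.30) and Ucp1 (4.41) stand clear in the same HFD PN liver, whereas Adipoq (1.15 to 1.5 over all livers) and Ckm (1.24 to 2.03) stay low in every liver.

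Markers of fat cells moved with Cox8b in that liver. Of 9 measured adipocyte markers, 6 were highest of all 8 livers in HFD PN replicate 2, against 10.6% of all genes. Ucp1, Retn and Fabp4, named above for their lead in this liver, are among the 6. The log2 of the summed linear level of the 9 was 8.0 there, with 5.60 to 8.0 in HFD PN livers and 5.34 to 5.96 in Ctrl PN livers. Without that liver the highest HFD PN sum was 6.31. Retn, the adipocyte hormone resistin, read 4.52 in HFD PN replicate 2, against 2.11 to 2.56 in the other livers, and Fabp4, the fatty acid carrier of adipocytes and macrophages, read 7.45, against 3.76 to 5.69. The lipid droplet gene Cidec read 4.32, against 1.65 to 2.81. The defining adipocyte genes Adipoq (adiponectin, 1.24) and Lep (leptin, 0.97) were below the median of all rows there as in the other livers. Of 12 striated muscle markers 1 was highest in that liver, near the share of all genes. Their sum was 5.16, with 5.13 to 5.26 in HFD PN livers and 5.23 to 5.42 in Ctrl PN livers. The part of fat cells in the Cox8b value was not tested.

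The other tissue-restricted forms were dim. Cox6a2, the heart and muscle form of subunit 6a, reached 2.18 in HFD PN replicate 1 and lay between 1.29 and 1.81 in the other livers. Cox4i2, the lung form of subunit 4, read 2.75 in HFD PN replicate 1 and 2.85 in Ctrl PN replicate 3, against 1.73 to 2.24 in the others. Cox6b2, the testis form of subunit 6b, averaged 1.31 ± 0.12 in HFD PN and 1.59 ± 0.29 in Ctrl PN livers (SD, n = 4 each), and its difference of -0.28 (exact permutation p = 0.0571) rested in part on 2.02 in Ctrl PN replicate 3, without which it was -0.13. Cox7b2 and Cox8c, known from testis, stayed between 0.95 and 1.32 in every liver.

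In complex V, the ATP synthase, the 17 genes had a median difference of -0.03, with 7 above and 10 below 0, and 0 passed a p under 0.05. Atp5j, coupling factor 6 of the peripheral stalk, had the highest difference and the smallest p. It read 5.13, 4.87, 4.84 and 4.83 in HFD PN livers, against 4.62, 4.39, 4.71 and 4.86 in Ctrl PN livers. Ctrl PN replicate 4 was the single Ctrl PN liver that reached into the HFD PN values. Its difference was 0.27 (standard error 0.13, limma p = 0.0616, exact permutation p = 0.0857). Atp5e, the epsilon subunit of the central stalk, was the lowest at -0.26, with 9.30, 8.46, 8.33 and 8.17 in HFD PN livers against 8.56, 8.54, 9.46 and 8.74 in Ctrl PN livers. Here too HFD PN replicate 1 and Ctrl PN replicate 3 were the highest livers, and the remaining 3 HFD PN livers lay below the remaining 3 Ctrl PN livers. Atp5k, the e subunit of the membrane part, differed by -0.19 and Atp5l, the g subunit, by 0.09, while Atp5md, a small subunit needed for dimers of the synthase, averaged 11.13 in both groups. The 3 genes Atp5g1, Atp5g2 and Atp5g3, which encode the same c-ring protein, differed by 0.07, -0.18 and 0.03. Of these, Atp5g1 was dim, at 1.76 in HFD PN and 1.69 in Ctrl PN livers, near the median of all rows.

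The 12 assembly factors had a median difference of 0.02, with 6 above and 6 below 0. Sdhaf1, which helps insert iron-sulfur clusters into Sdhb, was the 1 gene of the 93 with a p under 0.05. It read 2.26, 2.63, 2.85 and 2.45 in HFD PN livers, against 2.90, 3.10, 3.10 and 2.75 in Ctrl PN livers. The HFD PN livers were lower except that replicate 3 exceeded Ctrl PN replicate 4. Its difference was -0.42 (standard error 0.15, 95% interval -0.75 to -0.08, limma p = 0.0202, adjusted p = 0.99988, exact two-sided permutation p = 0.0571). The call was lost without HFD PN replicate 4, Ctrl PN replicate 2 or Ctrl PN replicate 3 and with both arrays that stood apart left out, and a second, dimmer row for the gene gave -0.13. Ndufaf4, which acts early in complex I assembly, was the highest at 0.17.

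A pattern in these genes was shared by HFD PN replicate 1 and Ctrl PN replicate 3, 1 liver of each group. In HFD PN replicate 1, 66 of the 93 genes lay above the mean of the other 3 HFD PN livers, with a median deviation of 0.20, beside 44.5% of all genes and a median of -0.05. Among the 12472 genes whose mean was above the median of all rows, 26.7% did, with a median of -0.32. In Ctrl PN replicate 3, 65 of the 93 genes lay above the mean of the other Ctrl PN livers, with a median deviation of 0.28. Beside this stood 48.0% of all genes with a median of -0.01, and 36.4% of the 12472 with a median of -0.13. Both deviations were positive for 59 genes and negative for 21. Across the 93 genes they had a Pearson's r of 0.83, beside 0.59 across all genes and 0.62 across the 12472. This r is a description over genes that share the same 8 arrays and their normalization. Ctrl PN replicate 3 was the highest of the 8 livers for 34 of the 93 genes and HFD PN replicate 1 for 25. Over all genes these shares were 18.3% and 18.0%. Ctrl PN replicate 3 was the lowest for 6 of the 93 and HFD PN replicate 1 for 13, against 11.9% and 30.2% of all genes. Another liver, Ctrl PN replicate 2, was the lowest for 20 of the 93, against 10.6% of all genes. Measured from each gene's mean over the 8 livers, its median deviation was -0.16. On that measure HFD PN replicate 1 had 0.17 and Ctrl PN replicate 3 had 0.22. The low values of Ctrl PN replicate 2 thus enter the deviation of Ctrl PN replicate 3 from the other Ctrl PN livers.

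**Figure D3:**
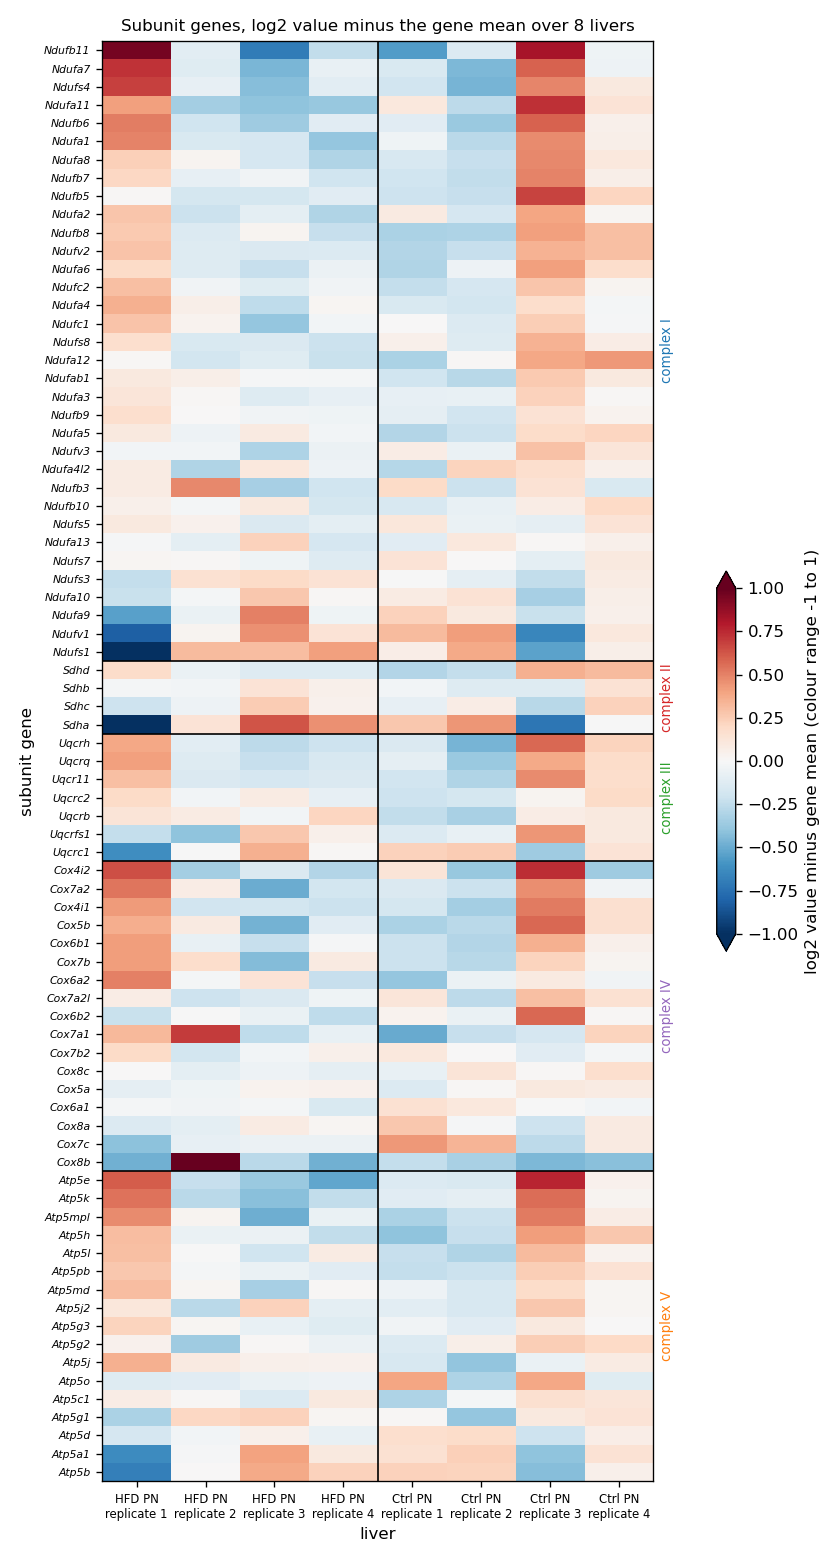
Log2 value minus the gene's mean over all 8 livers (colour, limited to -1 to 1) for 79 subunit genes (rows, by complex) in the 4 HFD PN and 4 Ctrl PN livers (columns). HFD PN replicate 1 and Ctrl PN replicate 3 share a red block in complexes I, III, IV and V and blue rows at Ndufs1, Ndufv1, Sdha, Uqcrc1, Atp5a1 and Atp5b, and Cox8b is red in HFD PN replicate 2 alone.

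The direction of this shift differed between subunits of the same complex. The genes named for it here were chosen after their values were seen, apart from those already described. Of 28 accessory subunits of complex I, 25 were above the other HFD PN livers in HFD PN replicate 1 and 24 above the other Ctrl PN livers in Ctrl PN replicate 3, whereas of the 6 core subunits 3 and 2 were. Ndufb11, an accessory subunit of the membrane arm, deviated by 1.30 in HFD PN replicate 1 and by 1.07 in Ctrl PN replicate 3. It read 5.17, 4.11, 3.51 and 3.97 in HFD PN livers, against 3.66, 4.08, 5.04 and 4.17 in Ctrl PN livers. Ndufs4, an accessory subunit whose loss causes Leigh-like disease in mice, deviated by 0.88 and 0.68. The core subunits Ndufs1, which carries iron-sulfur clusters, and Ndufv1, which binds NADH, went the other way, by -1.35 and -0.70 and by -1.02 and -0.94, whereas the core subunits Ndufs8 and Ndufv2 were above in both arrays (0.34 and 0.35, and 0.42 and 0.42). Ndufs1 read 3.84, 5.17, 5.15 and 5.26 in HFD PN livers, against 4.91, 5.23, 4.32 and 4.90 in Ctrl PN livers. In each group the liver that stood apart was the lowest.

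Subunits of the other complexes also went both ways. In complex II, Sdha deviated by -1.61 in HFD PN replicate 1 and by -0.96 in Ctrl PN replicate 3, the lowest values of all 93 genes in each, and of the 2 anchors Sdhd was above in both (0.29 and 0.43) and Sdhc below in both (-0.29 and -0.35). In complex III, all 4 small subunits were above in both arrays, the core protein Uqcrc1 was below in both (-0.74 and -0.56), the other core protein Uqcrc2 above in both (0.20 and 0.09), and the Rieske protein Uqcrfs1 below in HFD PN replicate 1 (-0.21) and above in Ctrl PN replicate 3 (0.48). In complex V, all 5 membrane subunits were above in both arrays. Atp5j2 among them was dim, at 1.66 in HFD PN and 1.67 in Ctrl PN livers. The F1 subunits Atp5a1 and Atp5b, which form the catalytic head, were below in both (-0.79 and -0.58, and -0.88 and -0.59), as was Atp5d (-0.15 and -0.35). By contrast, Atp5e and Atp5c1 in the same F1 part were above in both (0.98 and 0.85, and 0.08 and 0.22). In complex IV, 6 of the 9 common forms were above in each array. Cox4i1 deviated by 0.62 and 0.64 and Cox7a2 by 0.74 and 0.60, and Cox7c was below in both (-0.34 and -0.55).

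**Figure D4:**
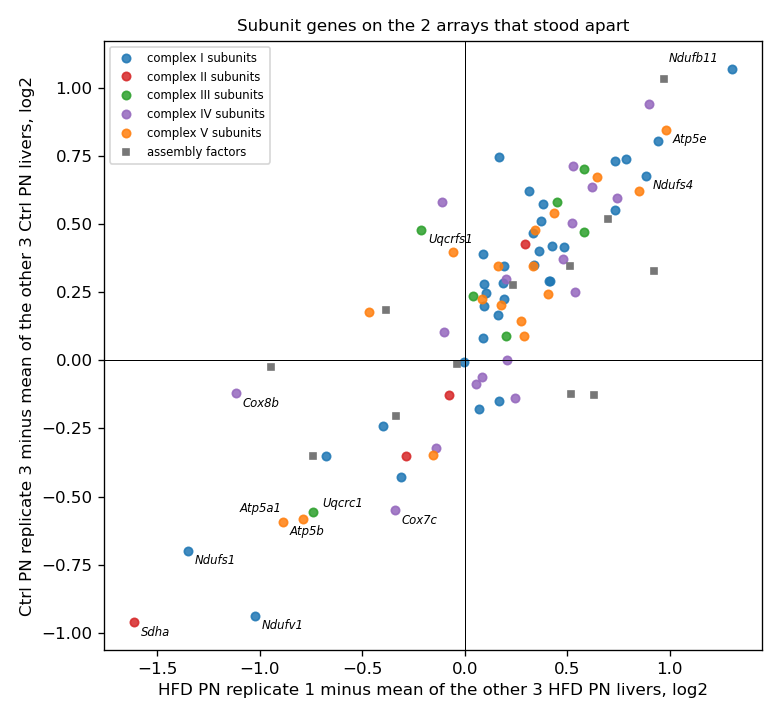
Deviation of HFD PN replicate 1 from the mean of the other 3 HFD PN livers (horizontal axis, log2) and of Ctrl PN replicate 3 from the mean of the other 3 Ctrl PN livers (vertical axis, log2), with 1 point per gene, coloured by complex. Sdha (-1.61 and -0.96) and Ndufb11 (1.30 and 1.07) mark the 2 ends. Of the genes plotted, 53 of 79 subunits and 5 of 12 assembly factors lie above 0 on both axes.

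Cytosolic ribosomal protein and citric acid cycle genes took sides on these 2 arrays as well. Of 67 cytosolic ribosomal protein genes, 57 were above in HFD PN replicate 1 and 60 above in Ctrl PN replicate 3. Of 18 citric acid cycle genes, 2 were above in each, with median deviations of -0.86 and -0.64. The shares above were 44.5% and 48.0% over all genes. They were 26.7% and 36.4% over the 12472 genes with a mean above the median of all rows. Mitochondrial carriers of the Slc25 family lay near the latter shares, with 9 (19.6%) and 18 (39.1%) of 46 above. Between the groups, the ribosomal protein genes had a median difference of -0.09 and the Slc25 carriers of -0.01. Deviations on these arrays were thus seen outside oxidative phosphorylation too, and the part of RNA quality or of the array in them was not tested.

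With both of these arrays left out, an alternative added after seeing the data, 0 of the 93 genes had an unadjusted p under 0.01, against 2.24% of all genes, and 5 had a p under 0.05, against 8.38% of all genes. The 5 were Atp5e (-0.29), Atp5k (-0.25), Cox7c (-0.36) and Ndufa11 (-0.37), lower in HFD PN, and Ndufaf1 (0.29), a complex I assembly factor, higher. The 2 arrays widened the spread of genes such as Atp5e, whose standard error was 0.28 with all livers and 0.11 without both. The median difference of the 93 genes was then -0.02. It was -0.087 without HFD PN replicate 1 alone and 0.040 without Ctrl PN replicate 3 alone, so the 2 arrays moved it in opposite directions. Leaving out HFD PN replicate 1 alone also gave 5 genes at a p under 0.05, against 9.39% of all genes.

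Genes around the pathway were compared between the groups in the same way. Of 45 measured assembly factors of a wider list, which includes Sdhaf1, 0 passed a p under 0.05 with a higher and 2 with a lower value in HFD PN livers, against 1.13% and 2.36% of all genes. The other 1 was Ecsit, a complex I assembly factor, at 3.05, 3.98, 3.71 and 3.97 in HFD PN livers and 4.25, 4.01, 4.38 and 4.00 in Ctrl PN livers. All 4 HFD PN livers were lower than all 4 Ctrl PN livers, by a margin of under 0.05 between the nearest, with a difference of -0.48 (standard error 0.21, limma p = 0.0484, adjusted p = 0.99988, exact two-sided permutation p = 0.0286, the smallest that 4 against 4 allows). HFD PN replicate 1 was the lowest liver, and the difference was -0.27 without it and -0.20 with both arrays that stood apart left out. The call at a limma p under 0.05 was lost in both cases, and also when any other single liver except HFD PN replicates 2 and 4 was left out. Of 17 electron carrier genes, 18 citric acid cycle genes, 9 genes of uncoupling and ATP export and 15 regulators of mitochondrial biogenesis, 0 in each list passed a p under 0.05. Among the regulators, the coactivator Ppargc1a read 2.35, 2.77, 3.39 and 3.02 in HFD PN livers against 2.80, 2.84, 2.3 and 2.43 in Ctrl PN livers (difference 0.29, standard error 0.22), with overlapping groups. Esrra, the estrogen-related receptor alpha, differed by -0.34 (standard error 0.20) and by -0.54 without HFD PN replicate 3, where it passed a limma p under 0.01, Nrf1 by -0.16, Gabpa, the GABP subunit that binds the ETS word, by 0.31 (standard error 0.31), and Tfam, which packs and transcribes mitochondrial DNA, by 0.10. Perm1, a regulator known from muscle, differed by -0.20 (limma p = 0.0544, exact permutation p = 0.0571).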

How the data were processed

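Liver RNA of 8 male offspring was hybridised to 1 Affymetrix Mouse Gene array each. The authors deposited log2 values made from the probe intensities with RMA (R 3.4.3 in the submitters' processing notes). RMA corrects background, equalises the distributions of probe values between arrays and summarises probes. The deposited values were not equal in distribution, as medians over all genes ran from 1.65 in HFD PN replicate 2 to 1.77 in Ctrl PN replicate 3. The number of arrays limits the precision, and arrays have no read depth. Of 41345 rows, 23521 named 1 gene, 1820 several and 16004 none in the annotation used here. For a gene with several rows (1082 genes, 10 of the 93), the row with the highest mean was kept, and 10 rows naming a gene of this kind together with others were left out. All 93 symbols matched the RefSeq table by gene identifier.

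The 2 groups were compared for all 22180 genes in R 4.3.3 by lmFit and eBayes of limma 3.58.1, with no covariate, scaling or filter added. The Benjamini-Hochberg adjustment ran over all genes. Single genes were also tested by exact permutation over the 70 splits of the livers, two-sided, with a smallest p of 0.0286. The fit was tested on simulated data. Summaries and figures used Python 3.11.15. Lists are described by counts and medians, with no test.

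The genes, lists and tests were chosen with earlier results of these data known. Genes named were those at a p under 0.01, the 2 highest and 2 lowest differences, the highest mean and the smallest p in each complex, all complex II subunits, the isoform families, the extreme assembly factors and, from each pathway list, the genes with the smallest p and the main regulators. Ndufs1, Ndufv1, Ndufb11, Ndufs4, Atp5a1, Atp5b, Ndufaf1, Retn, Fabp4, Cidec and the other marker genes given by value were named after their values were seen. The alternatives were to take the mean of a gene's rows, to centre arrays on their medians, to apply quantile normalization, to leave out dim genes, to use array weights or a robust variance with trend, to block on replicate number, to leave out each liver, to run the methods' t-test in both forms and to use current symbols. Probe-level files were not used here.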

Additional observations from a re-analysis of the deposited data

Results flagged for a closer look

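Of 134 groups of 4 livers checked, 15 were flagged because 1 liver lay far from the others. In those 15 the gap to its nearest neighbour took up 0.84 to 0.96 of the group's range. In independent groups, chance alone gives such a gap in about 1 in 20. HFD PN replicate 1 stood apart for Ndufs3 (2.92, against 3.31 to 3.35 in the other HFD PN livers), Ndufa11 (8.0, against 7.18 to 7.24), Cox7c (3.02, against 3.34 to 3.37), Atp5j (5.13, against 4.83 to 4.87), Cox4i1 (9.14, against 8.50 to 8.52) and Ndufs1 (3.84, against 5.15 to 5.26). HFD PN replicate 2 stood apart for Cox8b (4.30, against 1.16 to 1.37) and Ucp1 (4.41, against 1.17 to 1.45), HFD PN replicate 3 for Ndufv3 (4.58, against 4.82 to 4.86) and HFD PN replicate 4 for Cox6a1 (10.78, against 10.90 to 10.92). Ctrl PN replicate 3 stood apart for Cox6b2 (2.02, with the remaining Ctrl PN livers at 1.38 to 1.48), Atp5a1 (8.01, against 8.55 to 8.65), Pdhb, a pyruvate dehydrogenase subunit (6.13, against 6.94 to 7.01), and the median level of the complex II subunits (6.74, against 7.25 to 7.31). Ctrl PN replicate 4 stood apart for Etfa, an electron transfer flavoprotein subunit (8.59, against 8.40 to 8.41). Of the 15, 10 fell on HFD PN replicate 1 or Ctrl PN replicate 3. The groups share the same 8 arrays, and Ndufs1 and Atp5a1 were named for deviations of single arrays after their values were seen. The counts of 15 and 10 therefore cannot be set against the rate of 1 in 20.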

How the results depend on the processing

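No gene of the array passed an adjusted p under 0.05 in limma under any alternative, and the equal-variance form of the methods' t-test gave 1. Of the 93 genes, 1 had a p under 0.01 with quantile normalization and 0 to 1 with a liver left out. In both cases this was Sdhaf1, at -0.46 with quantile normalization and -0.52 without HFD PN replicate 3. A p under 0.05 was reached by 1 gene of the 93, by 2 with median centring, 2 with quantile normalization, 3 with array weights, 5 with both arrays that stood apart left out, and 0 to 5 with a liver left out. The 5 came without HFD PN replicate 1 and the 0 without HFD PN replicate 4, Sdhaf1 being the gene lost. Over all genes, 123 had a p under 0.01, 39 with dim genes left out, 195 with the methods' t-test, 426 with array weights, 496 with both arrays left out and 50 to 492 with a liver left out (50 without HFD PN replicate 4, 492 without HFD PN replicate 1, 72 without Ctrl PN replicate 3 and 81 when HFD PN replicate 2 was left out). The higher and lower genes in HFD PN among them numbered 43 and 80 with all livers, 52 and 48 with median centring, 241 and 185 with array weights, 393 and 99 without HFD PN replicate 1, 375 and 121 with both arrays left out, and 51 and 51 when HFD PN replicate 3 was left out. The median difference of all genes, -0.02, was 0.0090 with median centring, and that of the 93 genes ranged from -0.087 without HFD PN replicate 1 to 0.040 without Ctrl PN replicate 3. With a liver left out, the medians ranged from -0.13 to 0.026 in complex I, -0.048 to 0.093 in complex II, -0.19 to 0.068 in complex III, -0.13 to 0.075 in complex IV and -0.053 to 0.065 in complex V. Without HFD PN replicate 3, Esrra also passed a p under 0.01 (-0.54).

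The replicate number as a block gave 73 genes at a p under 0.01, with 0 of the 93 there and 1 at a p under 0.05. Deviations of livers with the same number had r of -0.30, 0.29, -0.41 and 0.16 over all genes. HFD PN replicate 2 was closest to Ctrl PN replicate 2, and HFD PN replicate 1 to Ctrl PN replicate 3 (r of 0.59). Since the arrays that stood apart weigh on these r, they cannot show whether the numbers pair the livers.

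Of 61 named genes, 27 changed sign with a liver or both arrays left out. Most had differences close to 0, and Cox8b (0.71) and Ucp1 (0.68) did not. Sign changes with quantile normalization were Sdhc (-0.030), Sdha (-0.0062), Atp5md (-0.0044), Cox4i2 (0.0039), Atp5g3 (-0.0093), Tfam (-0.014) and Ndufs1 (-0.0072). With array weights they were Atp5md (-0.038), Cox7b2 (-0.045), Atp5g3 (-0.023), Atp5a1 (0.014), Atp5b (0.073) and Ndufs4 (-0.058), and with both arrays left out Uqcrfs1 (0.0088), Atp5md (-0.036), Cox7b2 (-0.080), Atp5g3 (-0.0074), Atp5b (0.038) and Ndufs4 (-0.017). With a liver or both arrays left out, the genes that changed sign ranged as Ndufa4 -0.015 to 0.19, Ndufb9 -0.0039 to 0.11, Sdhc -0.066 to 0.10, Sdhd -0.18 to 0.038, Sdha -0.23 to 0.41, Uqcrfs1 -0.28 to 0.0088, Uqcrc1 -0.27 to 0.055, Cox8b -0.052 to 0.99, Atp5md -0.097 to 0.12, Cox4i1 -0.24 to 0.075, Cox4i2 -0.29 to 0.17, Cox6b1 -0.084 to 0.17, Cox7a2 -0.22 to 0.13, Cox7b2 -0.080 to 0.079, Cox8a -0.15 to 0.0095, Ndufa4l2 -0.18 to 0.0085, Atp5g1 -0.046 to 0.23, Atp5g3 -0.044 to 0.070, Ucp1 -0.088 to 0.99, Tfam -0.051 to 0.45, Ndufs1 -0.16 to 0.35, Ndufv1 -0.33 to 0.16, Atp5a1 -0.21 to 0.13, Atp5b -0.18 to 0.19, Ndufb11 -0.37 to 0.22, Ndufs4 -0.19 to 0.20 and Ndufaf1 -0.048 to 0.30. The cause was not tested in any of these. Genes near the median of all rows, such as Cox6b2, Cox7b2, Cox8c, Ndufs5, Atp5g1, Atp5j2 and Atp5o, are too dim for a difference to be read from them.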
